A study of Mus musculus with 26 samples.

Results

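Polycomb repressive complex 1 (PRC1) subunits were examined in mouse RNA hybridised to 26 exon arrays. The labels abbreviate the source to ES and EB, taken to mean embryonic stem (ES) cells and the embryoid bodies they form on differentiation. The members were 9 genes, the chromobox genes Cbx2, Cbx6, Cbx7 and Cbx8, the Polycomb group RING finger genes Bmi1, Pcgf2 and Pcgf6, and the RING ligases Ring1 and Rnf2. They were found as probe sets annotated with a single symbol of the list, which gave 94 probe sets and a gene value for 8 of the 9 genes, among 18341 genes tested. Cbx6 had 0 such probe sets, because all 23 of its probe sets were also annotated to Npcd and Nptxr, and it has no gene value. A gene value is the median, on the log2 scale, over the brighter part of a gene's probe sets, and 1 unit is a doubling of signal.

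The labels give 14 arrays of strain 129S2/SvPas, titled ES1 to ES14, and 12 of strain C57BL/6, titled ES15 to ES26. They name no other genotype, treatment, time, age, batch or date, and they call every sample an embryoid body cell. All samples share 2 rounds of RNA amplification. The strain label is the only grouping in the labels and the only contrast tested, while the runs of titles ES1 to ES12, ES13 and ES14, ES15 to ES20, ES21 to ES24, and ES25 and ES26 are described with no test, since no label makes them groups.

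PRC1 attaches a single ubiquitin to histone H2A at silenced genes through Ring1 or Rnf2, each paired with 1 Pcgf protein. In canonical complexes a Cbx protein reads the methyl mark that Polycomb repressive complex 2 (PRC2) places on histone H3, a Polyhomeotic (Phc) protein joins complexes into larger assemblies, and the Pcgf partner is Bmi1 or Pcgf2. In variant complexes such as that of Pcgf6, an Rybp or Yaf2 subunit takes the place of Cbx. Cbx7 is known as the main chromobox subunit of mouse ES cells, and Cbx2 and Cbx8 as subunits of differentiating cells.

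The arrays did not look like 1 kind of cell, and the runs differed in their marker genes. All 11 measured of 13 listed neutrophil and myeloid genes had their highest run median in ES1 to ES12, where their summed values spanned 123 to 136. They summed to 61.6 to 63.6 in ES13 and ES14, and the arrays labelled C57BL/6 had sums of 57.9 to 72.5. All 11 naive pluripotency genes were highest in ES21 to ES24, with sums of 119 to 124, against 59.1 to 66.2 in ES1 to ES12 and 79.5 to 95.1 in the remaining arrays. All 8 primitive streak genes were highest in ES13 and ES14, and all 6 measured of 7 embryonic erythroid genes were highest in ES15 to ES20, along with 6 of 10 fibroblast and 5 of 6 endothelial genes. Lymphocyte genes, 7 measured of 9, kept sums of 37.4 to 42.3 throughout. No marker is at 0 on this scale. The arrays thus differed widely in their markers under the single cell name in the labels. Whether that name holds for each array was not tested, and the groups are called by their labels below. In such bulk samples, fewer cells of a type and less RNA per cell cannot be told apart.

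The bases before the gene starts are shown for the chromobox and Pcgf genes whose values moved most unequally among the runs, Cbx7 against Cbx8 and Bmi1 against Pcgf2. Each sequence holds the 250 bases before the start in RefSeq's table for build GRCm38.p6, 5′ to 3′ on the gene's own strand. Capitals mark the E-box CACGTG, the motif bound by Max dimers. Max is itself a partner in the Pcgf6 complex.
Cbx7 promoter, chr15:79932647-79932896, minus strand: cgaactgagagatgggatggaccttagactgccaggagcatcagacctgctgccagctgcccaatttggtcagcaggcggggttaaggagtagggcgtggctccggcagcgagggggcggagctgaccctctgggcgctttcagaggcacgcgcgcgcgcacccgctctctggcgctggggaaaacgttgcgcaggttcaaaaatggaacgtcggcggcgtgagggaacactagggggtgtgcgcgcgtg
Cbx8 promoter, chr11:119040914-119041163, minus strand: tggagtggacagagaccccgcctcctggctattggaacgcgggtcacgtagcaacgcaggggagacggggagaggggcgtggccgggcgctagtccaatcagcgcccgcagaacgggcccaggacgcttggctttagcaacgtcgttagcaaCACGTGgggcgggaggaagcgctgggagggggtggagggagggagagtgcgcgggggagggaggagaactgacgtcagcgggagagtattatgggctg
Bmi1 promoter, chr2:18676768-18677017, plus strand: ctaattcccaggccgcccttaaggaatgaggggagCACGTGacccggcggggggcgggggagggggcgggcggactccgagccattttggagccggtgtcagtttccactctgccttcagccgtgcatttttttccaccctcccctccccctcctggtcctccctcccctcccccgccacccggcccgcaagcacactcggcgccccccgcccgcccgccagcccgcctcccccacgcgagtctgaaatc
Pcgf2 promoter, chr11:97699649-97699898, minus strand: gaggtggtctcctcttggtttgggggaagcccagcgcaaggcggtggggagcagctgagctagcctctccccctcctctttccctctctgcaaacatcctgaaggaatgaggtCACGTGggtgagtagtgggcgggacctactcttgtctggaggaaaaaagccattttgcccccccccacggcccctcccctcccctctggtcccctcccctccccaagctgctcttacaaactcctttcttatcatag
The table held an entry for 8 of the 9 members, and none for Cbx2. An E-box, which reads the same on both strands, lay in 4 of these 8 windows, those of Cbx6, Cbx8, Bmi1 and Pcgf2, and in 6.02% of all 32851 windows of this length. It began 26 bases before the start in Cbx6, 98 in Cbx8, 215 in Bmi1 and 137 in Pcgf2, and in Cbx8 a GC box followed it directly. The GC box GGGCGG, searched on both strands, lay in all 8 windows and in 32.7% of all windows. CCAAT lay in 2 of the 8 and 33.8% of all, and the octamer ATGCAAAT in 0 of the 8 and 1.60% of all. The window of Cbx7 held 23 CG dinucleotides, that of Cbx8 22 and that of Bmi1 21, whereas that of Pcgf2 held 5, near the median of 6 over all windows. The windows of Cbx6, Pcgf6, Ring1 and Rnf2 held 20, 14, 30 and 20. All but that of Pcgf2 thus lay above the median, and the shares over all windows were not matched for CG content. The motif matches describe the letters in these windows only.

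Between the strain labels, 5 members were lower and 1 was higher in the arrays labelled 129S2/SvPas among the 8 with a value. Over all tested genes, 22.1% were lower and 21.1% higher, 43.2% in either direction. The median difference, 129S2/SvPas minus C57BL/6, was -0.51 over the 8 members and 0.00 over all genes. Pcgf2, Rnf2, Cbx8, Cbx2 and Pcgf6 fell, Ring1 rose, and Cbx7 and Bmi1 did not pass the threshold. Every difference is from limma with Benjamini-Hochberg adjustment over all tested genes and a threshold of 0.05. No member separated the labels without overlap, which 0.529% of genes did with the arrays labelled 129S2/SvPas below and 0.114% with them above. The signs rested on ES1 to ES12: without those arrays, 6 of the 8 members, Cbx2, Bmi1, Pcgf2, Pcgf6, Ring1 and Rnf2, changed sign, and 0 passed the threshold by limma (1 higher and 0 lower at an unadjusted p under 0.05). That fit set 2 arrays against 12, and by limma only 1 of all 18341 genes passed (1814 at an unadjusted p under 0.05). The 0 is therefore no trait of the members. The myeloid genes moved with the same arrays, and their part in these differences was not tested.

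**Figure D1:**
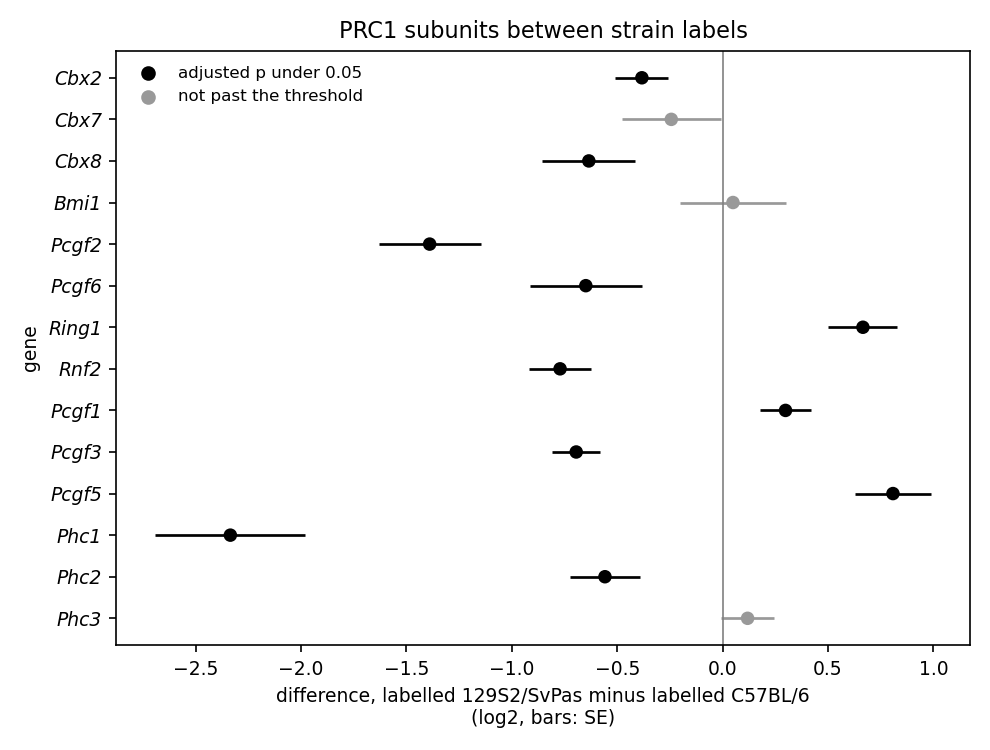
Difference between the strain labels, 129S2/SvPas minus C57BL/6 (log2, x axis), for the 8 members and 6 further PRC1 genes (y axis). Points are limma estimates and bars their SE, black where the adjusted p was under 0.05. Phc1 lies farthest below 0 at -2.34, Pcgf2 at -1.39, and Pcgf5 and Ring1 lie above 0.

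Some members set a run of titles apart from every other array. In ES1 to ES12, 1 member lay above and 2 lay below all other arrays, against 7.76% and 6.42% of all genes. In ES21 to ES24, 1 member lay above and 0 below (2.38% and 0.48% of all genes), and likewise 1 above and 0 below in ES25 and ES26 (4.52% and 2.46%). Neither ES13 and ES14 (1.21% above, 2.26% below) nor ES15 to ES20 (1.76% above, 0.338% below) were set apart by a member. The members concerned were Ring1, Pcgf2 and Rnf2, then Cbx7, then Bmi1. With 8 members, 1 gene is already a larger share than any of these percentages.

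The chromobox subunits, the readers of the methyl mark, did not follow one pattern. Cbx7 was highest in ES21 to ES24, Cbx8 in ES15 to ES20, and Cbx2 in ES13 and ES14. Cbx7 had values of 7.10 to 8.46 with a median of 7.68 in ES1 to ES12, and of 7.71 and 7.15 in ES13 and ES14. It spanned 6.99 to 7.76 with a median of 7.18 in ES15 to ES20, was 8.53, 9.05, 9.15 and 8.93 in ES21 to ES24, and 7.66 and 7.67 in ES25 and ES26. Those 4 arrays of ES21 to ES24 lay above every other array, as was the case for 2.38% of all genes, and the remaining runs overlapped their neighbours in the order of medians. The naive pluripotency genes were highest in the same 4 arrays, and their part in the Cbx7 values was not tested.

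The gene value of Cbx7 understates how far some of its probe sets moved. Of its 10 probe sets, 8 had their highest run median in ES21 to ES24. Their shift there, run median minus the median of all arrays, ran from -0.02 to 3.84 over the 10 probe sets, with a median of 1.69. The share of all probe sets highest or lowest in a given run was not computed, for Cbx7 or the members below. The brighter probe sets also form the gene value, so such counts by run are no separate result. When all its probe sets were averaged, the strain difference of Cbx7 was -0.62 and passed (adjusted p = 0.0436), whereas with the brighter probe sets it was -0.24 ± 0.23 (SE; adjusted p = 0.428). Cbx7 averaged 7.63 ± 0.35 in the arrays labelled 129S2/SvPas and 7.87 ± 0.82 in those labelled C57BL/6 (SD, n = 14 and n = 12), and the labels overlapped widely.

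Cbx8 showed another order. It spanned 6.22 to 7.85 with a median of 7.07 in ES1 to ES12, and the values of ES13 and ES14 were 6.72 and 7.13. In ES15 to ES20 it spanned 7.71 to 8.70 with a median of 8.38, while it was 7.17, 7.37, 7.01 and 6.07 in ES21 to ES24 and 7.55 and 7.99 in ES25 and ES26. Within ES15 to ES20, the arrays ES17 to ES20 lay above every array outside the run, and ES15 and ES16 overlapped ES1 and ES26. Of its 8 probe sets, 7 were highest in that run, in which the erythroid, fibroblast and endothelial markers were also highest, and their part was not tested.

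Between the labels, Cbx8 ranged from 6.22 to 7.85 with a median of 7.07 in the arrays labelled 129S2/SvPas and from 6.07 to 8.70 with a median of 7.79 in those labelled C57BL/6. It fell by 0.63 on the log2 scale (SE 0.22; limma adjusted p = 0.0211), with overlapping labels. Under the median over all probe sets the difference of Cbx8 was -0.12 (adjusted p = 0.575) and under their mean -0.38 (adjusted p = 0.0700). By themselves, 2 of its 8 probe sets passed, both as lower. Of all probe sets, 14.6% passed as lower and 28.8% in either direction.

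Cbx2, a chromobox subunit that compacts chromatin, spanned the narrowest range of the 3 chromobox genes with a value, 1.56 units. It spanned 8.46 to 9.44 with a median of 8.91 in ES1 to ES12, was 10.02 and 9.66 in ES13 and ES14, and spanned 9.19 to 9.65 with a median of 9.49 in ES15 to ES20. It was 9.40, 9.19, 9.39 and 9.72 in ES21 to ES24 and 9.57 and 9.40 in ES25 and ES26. ES1 to ES12 had the lowest run median for all 7 probe sets, and ES13 and ES14 the highest for 6 of them. The gene values of ES6, 9.44, and of ES1, 9.23, reached into the range of the later runs.

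Cbx2 fell by 0.38 (SE 0.13; limma adjusted p = 0.0151) in the arrays labelled 129S2/SvPas, with 9.07 ± 0.40, against 9.46 ± 0.16 in those labelled C57BL/6. The call was lost when arrays were centred on their median (-0.25; adjusted p = 0.124), and the difference of Cbx2 was -0.67 as the median and -0.72 as the mean of all 7 probe sets. Cbx2 and Cbx8, which both lie on chromosome 11, did not share an order of runs.

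**Figure D2:**
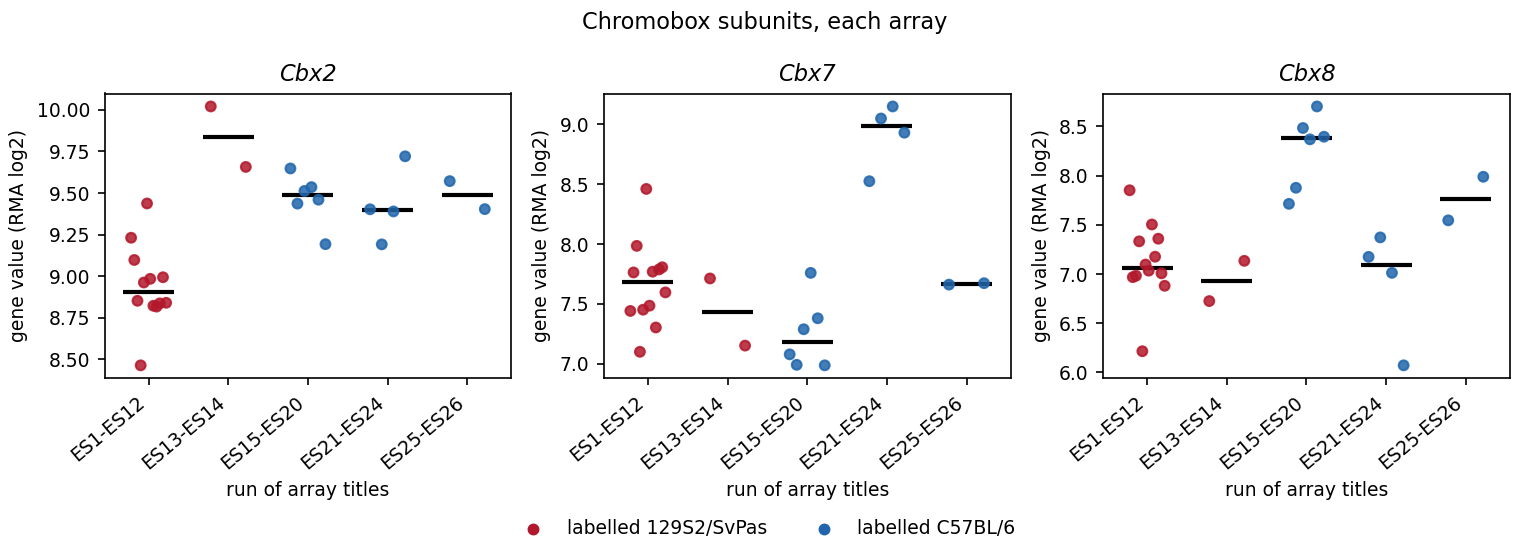
Gene values (RMA log2, y axis, a separate scale per gene and not starting at 0) of Cbx2, Cbx7 and Cbx8 in each array, by run of titles (x axis); red points are labelled 129S2/SvPas, blue points C57BL/6, and lines are run medians. Cbx7 stands highest in ES21 to ES24 at 8.53 to 9.15 and Cbx8 in ES15 to ES20 at 7.71 to 8.70.

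The Pcgf subunits, which set the kind of complex, divided the runs differently. Pcgf2 was lowest in ES1 to ES12, Bmi1 highest in ES25 and ES26, and Pcgf6 highest in ES21 to ES24. The first 2 traits were not particular to these members, since Pcgf3, given below, had both. Pcgf2, also known as Mel18 and a partner in canonical PRC1, spanned 7.42 to 8.96 with a median of 8.48 in ES1 to ES12, and the values of ES13 and ES14 were 10.52 and 10.43. It spanned 9.82 to 10.26 with a median of 10.08 in ES15 to ES20, was 10.23, 10.32, 10.50 and 10.46 in ES21 to ES24, and 9.71 and 9.60 in ES25 and ES26. Every array of ES1 to ES12 lay below every other array, as 6.42% of all genes did, and ES25 and ES26 lay between that run and the rest without overlap.

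Pcgf2 had the largest strain difference of the members. It averaged 8.72 ± 0.83 in the arrays labelled 129S2/SvPas and 10.11 ± 0.28 in those labelled C57BL/6 and fell by 1.39 (SE 0.24; limma adjusted p = 4.18e-05). ES13 and ES14 carry the 129S2/SvPas label and held the highest and the fourth highest values of all arrays, so that without ES1 to ES12 the difference was 0.37. All 16 probe sets of Pcgf2 were lower on average in the arrays labelled 129S2/SvPas, and 14 passed by themselves, against 14.6% of all probe sets passing as lower, 14.2% as higher and 28.8% in either direction.

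Bmi1, the Pcgf partner best known for blood and neural stem cell maintenance, had a different course. It spanned 8.22 to 10.00 with a median of 9.26 in ES1 to ES12, was 8.10 and 8.69 in ES13 and ES14, and spanned 8.25 to 8.91 with a median of 8.58 in ES15 to ES20. It was 9.35, 9.51, 8.96 and 8.33 in ES21 to ES24 and 10.07 and 10.71 in ES25 and ES26. Both ES25 and ES26 lay above every other array, as for 4.52% of all genes, though ES5 at 10.00 came within 0.1 unit of ES25. Of the 18 probe sets of Bmi1, 17 were highest in ES25 and ES26. The 5 neural progenitor genes summed to 42.2 to 42.9 there, close to the 42.0 to 42.8 of ES21 to ES24 and above the 29.5 to 39.5 of the other runs, and 2 of them, Nes and Tubb3, had their highest run median in ES25 and ES26. So did 2 of the 10 fibroblast genes, Col1a2 and Prrx1, while the fibroblast sums were 83.6 to 86.8, against 82.2 to 108 in ES15 to ES20. Their part in the Bmi1 values was not tested.

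Bmi1 averaged 9.08 ± 0.57 in the arrays labelled 129S2/SvPas and 9.03 ± 0.76 in those labelled C57BL/6. The difference of 0.05 ± 0.25 (SE; limma adjusted p = 0.898) did not pass, and its sign changed with 6 of the 26 arrays left out one at a time. Its spread within ES1 to ES12 was wider than most gaps between run medians.

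Pcgf6, the defining subunit of the variant complex with Mga, Max, E2f6 and L3mbtl2, spanned 7.19 to 9.66 with a median of 8.63 in ES1 to ES12, and the values of ES13 and ES14 were 9.99 and 9.95. It spanned 8.59 to 9.93 with a median of 8.97 in ES15 to ES20, was 9.92, 10.09, 10.31 and 10.17 in ES21 to ES24, and 9.23 and 9.86 in ES25 and ES26. ES21 to ES24 and ES13 and ES14 overlapped each other at the top, ES15 at 9.93 lay just above ES21, and the other runs overlapped below. Of its 15 probe sets, 12 were highest in ES21 to ES24 and 12 lowest in ES1 to ES12.

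Pcgf6 averaged 8.88 ± 0.78 in the arrays labelled 129S2/SvPas and 9.52 ± 0.61 in those labelled C57BL/6, a difference of -0.65 ± 0.27 (SE; limma adjusted p = 0.0493). That call sits at the threshold, with limma adjusted p between 0.0210 and 0.0875 over the 26 fits with 1 array left out. The call held in 10 fits, those without ES5, ES7, ES8, ES13, ES14, ES17, ES18, ES19, ES20 or ES25, and failed in the other 16. It also failed when arrays were centred on their median (-0.52, adjusted p = 0.112), when the median of all Pcgf6 probe sets was used (-0.47, adjusted p = 0.173) and by the rank sum test (adjusted p = 0.0686 for a difference of -1.02 between the medians), and it was missed narrowly when genes with at least 1 probe set were tested (-0.65, adjusted p = 0.0537).

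**Figure D3:**
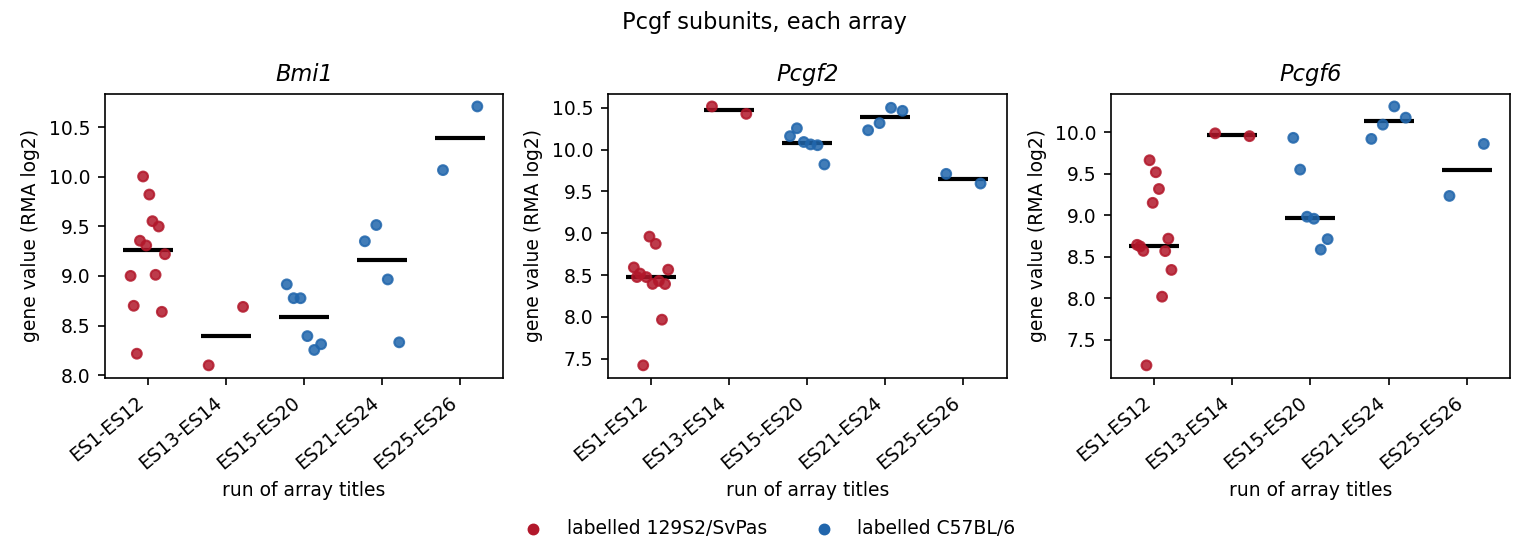
Gene values (RMA log2, y axis, a separate scale per gene and not starting at 0) of Bmi1, Pcgf2 and Pcgf6 in each array, by run of titles (x axis); red points are labelled 129S2/SvPas, blue points C57BL/6, and lines are run medians. ES1 to ES12 lie lowest for Pcgf2 at 7.42 to 8.96, and ES25 and ES26 highest for Bmi1 at 10.07 and 10.71.

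The RING ligases, the enzymes of the complex, moved in opposite directions between the labels, Rnf2 down and Ring1 up. Rnf2, also called RING1B and the main ligase of ES cells, spanned 8.25 to 9.39 with a median of 9.07 in ES1 to ES12, was 10.00 and 10.10 in ES13 and ES14, and spanned 9.82 to 10.10 with a median of 9.96 in ES15 to ES20. It was 9.74, 9.97, 10.04 and 10.26 in ES21 to ES24 and 9.55 and 9.86 in ES25 and ES26. ES1 to ES12 lay below every other array, and the other 4 runs overlapped their neighbours.

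Ring1, also called RING1A, spanned 8.14 to 8.93 with a median of 8.57 in ES1 to ES12, and the values of ES13 and ES14 were 7.32 and 7.16. It spanned 7.70 to 8.06 with a median of 7.83 in ES15 to ES20, was 7.49, 7.66, 7.41 and 7.01 in ES21 to ES24, and 7.69 and 7.87 in ES25 and ES26. Every array of ES1 to ES12 lay above every other array, as for 7.76% of all genes, though ES12 at 8.14 and ES20 at 8.06 were close.

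Rnf2 averaged 9.16 ± 0.49 in the arrays labelled 129S2/SvPas and 9.93 ± 0.19 in those labelled C57BL/6, and fell by 0.77 (SE 0.15; limma adjusted p = 0.000135). Ring1 averaged 8.34 ± 0.51 in the arrays labelled 129S2/SvPas and 7.68 ± 0.27 in those labelled C57BL/6, and rose by 0.67 (SE 0.16; limma adjusted p = 0.00165). All 8 probe sets of Rnf2 passed as lower, as 14.6% of all probe sets did. Of the 12 probe sets of Ring1, 6 passed as higher, as 14.2% of all probe sets did, and 9 leaned that way. The difference of Ring1 was 0.36 with the mean over all probe sets, and without ES1 to ES12 it was -0.44 and that of Rnf2 was 0.12.

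**Figure D4:**
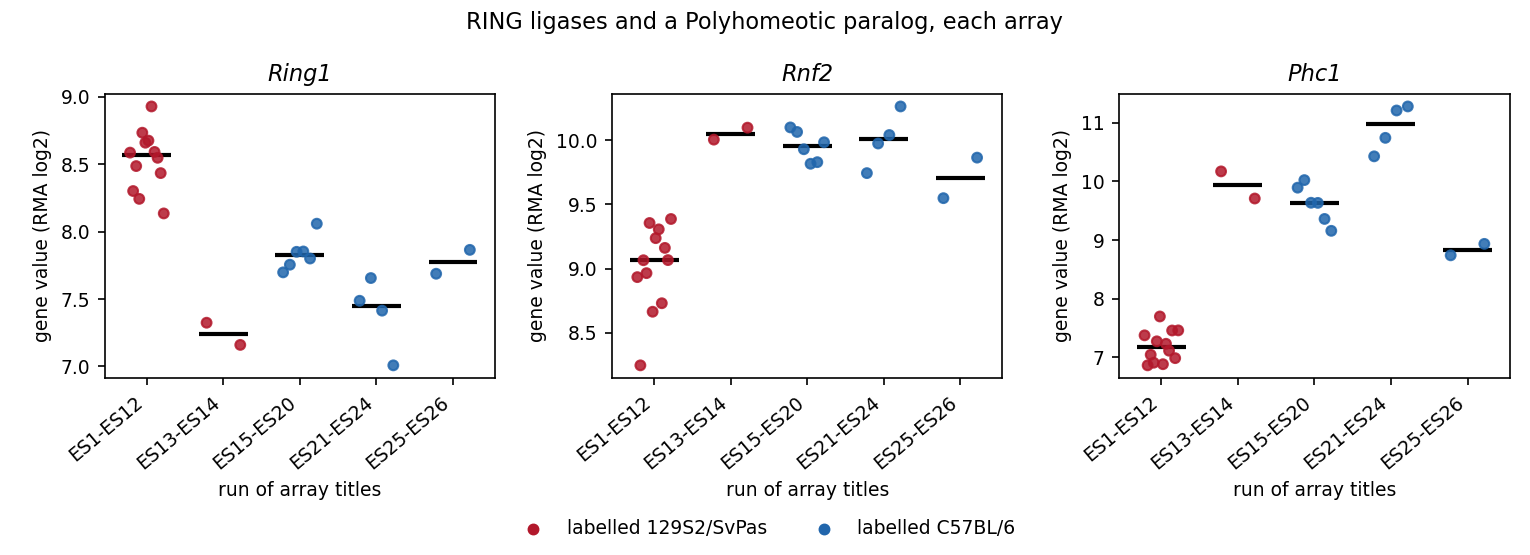
Gene values (RMA log2, y axis, a separate scale per gene and not starting at 0) of Ring1, Rnf2 and the Polyhomeotic gene Phc1 in each array, by run of titles (x axis); red points are labelled 129S2/SvPas, blue points C57BL/6, and lines are run medians. ES1 to ES12 lie above all other arrays for Ring1 and below them for Rnf2 and Phc1.

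Differences between paralogs within an array show unequal change across arrays, not which gene is more abundant, since probe sets differ in brightness. No share over other gene pairs was computed, so a lack of overlap in such a difference is description only. The value of Cbx7 minus that of Cbx8 spanned -0.41 to 1.36 in ES1 to ES12, was 0.99 and 0.02 in ES13 and ES14, and spanned -1.41 to -0.61 in ES15 to ES20. It was 1.35, 1.68, 2.14 and 2.86 in ES21 to ES24 and 0.12 and -0.32 in ES25 and ES26. ES15 to ES20 lay below every other array, and ES21 to ES24 lay at the top with ES6 among them. The run medians of ES21 to ES24 and of ES15 to ES20 were 1.91 and -1.04.

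The Bmi1 minus Pcgf2 difference split the arrays in another way. It spanned -0.30 to 1.93 in ES1 to ES12, was -2.42 and -1.74 in ES13 and ES14, and spanned -1.80 to -1.25 in ES15 to ES20. It was -0.88, -0.80, -1.54 and -2.13 in ES21 to ES24 and 0.36 and 1.11 in ES25 and ES26. ES1 to ES12 and ES25 and ES26, which carry different strain labels, lay together above all the rest. Pcgf2 was lowest in ES1 to ES12 and Bmi1 highest in ES25 and ES26, so this split partly restates the single genes. Pcgf6 minus Pcgf2 had run medians of 0.17, -0.50, -1.11, -0.26 and -0.11 in title order and overlapped between most runs.

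Ring1 minus Rnf2 set ES1 to ES12 apart from every other array. Ring1 lay above and Rnf2 below all other arrays in that run, so their difference had to separate it and is no further result. It spanned -1.25 to 0.06 in ES1 to ES12, was -2.68 and -2.94 in ES13 and ES14, spanned -2.40 to -1.92 in ES15 to ES20 and -3.25 to -2.26 in ES21 to ES24, and was -1.86 and -2.00 in ES25 and ES26. Cbx7 minus Cbx2 had run medians of -1.29, -2.41, -2.22, -0.51 and -1.82 in title order, highest in ES21 to ES24.

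**Figure D5:**
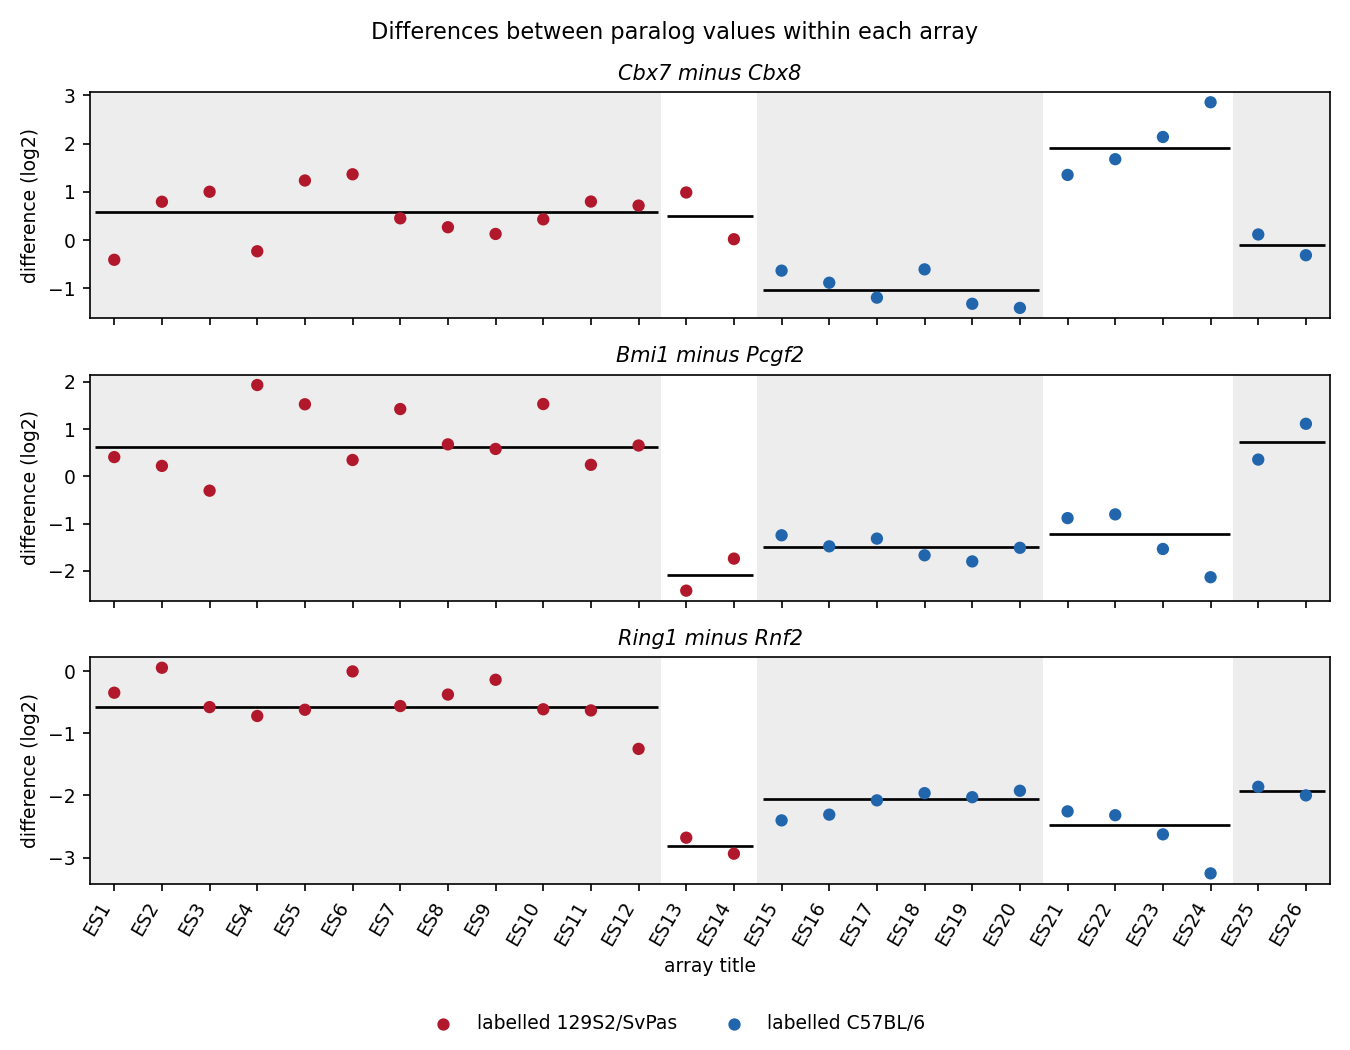
Difference between paralog gene values (log2, y axis) within each array (x axis, titles in order) for Cbx7 minus Cbx8, Bmi1 minus Pcgf2 and Ring1 minus Rnf2; shading separates the runs of titles, lines are run medians, red is labelled 129S2/SvPas and blue C57BL/6. ES15 to ES20 lie lowest for Cbx7 minus Cbx8, and ES1 to ES12 highest for Ring1 minus Rnf2.

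Among the 6 tested paralogs outside the members, 2 rose and 3 fell, where 21.1% of all genes rose and 22.1% fell. Phc1, the Polyhomeotic subunit typical of ES cells, fell by 2.34 (SE 0.36; limma adjusted p = 7.65e-06), with 7.59 ± 1.03 in the arrays labelled 129S2/SvPas and 9.92 ± 0.85 in those labelled C57BL/6. Phc1 spanned 6.86 to 7.70 in ES1 to ES12, below every other array (6.42% of all genes), and was 10.17 and 9.71 in ES13 and ES14. It spanned 10.43 to 11.28 in ES21 to ES24, above every other array, as 1 of the 6 tested paralogs and 2.38% of all genes did. It was thus highest in the same 4 arrays as Cbx7, but lowest in another run. Phc2 fell by 0.56 (limma adjusted p = 0.00712), although its difference was -0.05 with the median over all probe sets, and Phc3 did not pass (0.12, adjusted p = 0.481).

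The other Pcgf genes belong to variant complexes. Pcgf3 fell by 0.69 (limma adjusted p = 1.82e-05), and its close paralog Pcgf5, which joins the same kind of complex, rose by 0.81 (limma adjusted p = 0.000664). Pcgf3 was 10.15 and 10.49 in ES25 and ES26 and spanned 8.75 to 9.50 in ES1 to ES12. Of the 6 tested paralogs, 2, Pcgf3 and Phc2, lay above every other array in ES25 and ES26 (4.52% of all genes). Another 2, Pcgf3 again and Phc1, lay below every other array in ES1 to ES12 (6.42%). Pcgf1, the partner of Kdm2b and Bcor, rose by 0.30 (limma adjusted p = 0.0481), a call at the threshold that held in 8 of 26 fits with 1 array left out, those without ES4, ES10, ES12, ES13, ES14, ES18, ES21 or ES26. Without ES1 to ES12, Pcgf1, Phc1 and Phc3 changed sign, to -0.27, 0.02 and -0.47.

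Of 24 accessory subunits of PRC1, 8 rose and 6 fell, against 21.1% and 22.1% of all genes, with a list median of 0.05. Sfmbt2, a Polycomb protein with MBT repeats, fell by 2.22, and Scml2, which also has MBT repeats, fell by 2.22. Auts2, the partner of Pcgf3 and Pcgf5 complexes, fell by 1.49, whereas its paralog Fbrs rose by 0.95. Skp1, shared with ubiquitin ligases, fell by 0.77, and Sfmbt1 rose by 0.62. The limma adjusted p of these 6 genes lay at or below 0.00106. Without ES1 to ES12, Auts2, Fbrs and Skp1 changed sign, and 0 of the listed genes passed by limma (2 higher and 1 lower at an unadjusted p under 0.05). By limma, 1 of all 18341 genes passed in that fit (1814 at an unadjusted p under 0.05).

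Of the 12 tested subunits of PRC2, the writer of the methyl mark, 0 rose and 1 fell by limma (1 higher and 3 lower at an unadjusted p under 0.05), where 43.2% of all genes passed in either direction. The rank sum test called 0 higher and 2 lower. The gene that fell was Rbbp7, a histone-binding subunit shared with other complexes (-0.34, limma adjusted p = 0.0011). Of 8 genes of H2A deubiquitinases, enzymes and partners that remove the PRC1 mark, Foxk1 rose by 0.43 and Asxl3 fell by 1.31, and the other 6 did not pass. The chromobox genes of heterochromatin protein 1, which read a different methyl mark, are no PRC1 subunits, and Cbx1 fell by 0.82 and Cbx5 by 0.73, while Cbx3 did not pass (-0.20, adjusted p = 0.0719). Cbx3 passed with quantile normalization, with array weights and without ES13 and ES14.

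The Ink4 locus, a classical target that Bmi1 and Cbx7 help to silence, was read by its 2 genes. Cdkn2a, which encodes the cell cycle inhibitor p16Ink4a and the p53 activator Arf, fell by 0.90 (limma adjusted p = 0.00116) in the arrays labelled 129S2/SvPas. Its neighbour Cdkn2b fell by 0.58 (limma adjusted p = 0.0103). Over all tested genes, 22.1% fell and 43.2% passed in either direction. Cdkn2a was 9.97 and 9.69 in ES25 and ES26, and Cdkn2b 8.94 and 8.70, above every other array for both genes, as 4.52% of all genes were. In ES21 to ES24, where Cbx7 was highest, Cdkn2a was 9.42, 9.57, 9.00 and 8.44, and Cdkn2b 8.45, 8.29, 7.48 and 7.65. In ES15 to ES20 Cdkn2a spanned 7.95 to 8.31 and Cdkn2b 7.08 to 7.45. These overlapped the arrays labelled 129S2/SvPas, which reached 8.24 and 7.59. The run median of Bmi1 was also highest in ES25 and ES26. So were those of 2 of the 5 neural progenitor and 2 of the 10 fibroblast genes. Of the others, 2 neural genes were highest in ES13 and ES14, and 6 fibroblast genes in ES15 to ES20. Their part in the Ink4 values was not tested. Cdkn2b lost its call when all probe sets entered the median (-0.64, adjusted p = 0.123) and after quantile normalization (-0.44, adjusted p = 0.0520).

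For the 6 members whose values spanned at least 2 units, the 3 genes with the closest centred values over 26 arrays were found by root mean square distance, in log2 units. Those of Cbx7 were Tmem125 (0.286), Slc28a1 (0.327) and Pgc (0.327), and those of Cbx8 were Smim19 (0.333), Pja2 (0.337) and Zeb1 (0.341). Those of Bmi1 were Lrrk1 (0.241), Scap (0.315) and Med27 (0.315), and those of Pcgf2 were Vangl2 (0.268), Ahdc1 (0.273) and Traf4 (0.285). Pcgf6 was nearest to Sinhcaf (0.212), Gemin5 (0.246) and Gnl3 (0.251), and Rnf2 to Fem1b (0.215), Rabep1 (0.222) and Pdpr (0.222). The median distance over all genes was 0.655 to 0.983 for these members. The names depended on how a gene value was formed: when all probe sets entered a median or a mean, 0 or 1 of the 3 recurred for each member.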

How the data were processed

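The samples were measured on the Affymetrix Mouse Exon 1.0 ST array. Per the labels, the authors made RMA values in Affymetrix Expression Console by its extended-exon analysis and deposited them as background-corrected, normalized log2 values per probe set. Base 2 was assumed by RMA convention for values of 0.831 to 15.6. The version of the tool and the genome build are not given in the sources used here. Of 631748 probe sets, 306069 had 1 symbol, 6067 several and 319612 none. Of 21757 symbols, 17747 were current in RefSeq for GRCm38.p6, 3725 were updated and 285 kept. Array medians lay between 5.32 and 5.51, 0 values were missing and 0 pairs of arrays were identical. Arrays give no read depth, and their number limits the precision.

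Each gene's value was the median of the brighter 50% of its probe sets (rounded up), ranked by mean over 26 arrays. Genes with 4 or more probe sets, 18341 in all, entered limma 3.58.1 in R 4.3.3 (lmFit, eBayes with a trend, two-sided, Benjamini-Hochberg, threshold 0.05), as were all probe sets. Alternatives changed how gene values were formed, the filters, the normalization, the eBayes and weight settings, the test, the threshold or the arrays used. On simulated data, the gene comparison recovered 40% of 50 genes changed by 0.5 log2 units, 86% at 1, 96% at 2 and 100% at 4. It made 8 false calls among the unchanged genes of the 18341 run. The simulated noise was independent between arrays and held no runs of titles. These rates therefore show that the fit works and do not carry over to the arrays here.

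The members, lists and tests were chosen with earlier results of these data known. Named were all members, all tested paralogs, heterochromatin protein 1 and Ink4 genes, and, among genes past the threshold, up to 6 accessory, 6 PRC2 and 3 deubiquitinase genes with the largest difference, plus the nearest genes. The labels do not say whether samples are separate cultures or animals, so the p-values reflect the spread among these samples alone, which may be technical. Strain labels follow title order, so strain and an unrecorded batch cannot be told apart.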

Additional observations from a re-analysis of the deposited data

How the results depend on the processing

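Leaving out ES1 to ES12, so that ES13 and ES14 stood against 12 arrays, ended every call among the named genes: by limma 1 gene of all 18341 was higher and 0 were lower (1814 at an unadjusted p under 0.05), against 3876 and 4055 with all arrays, and 0 members and 0 other Polycomb genes passed in either direction. The differences that changed sign there were those of Cbx2 (0.38), Bmi1 (-0.64), Pcgf2 (0.37), Pcgf6 (0.44), Ring1 (-0.44), Rnf2 (0.12), Pcgf1 (-0.27), Phc1 (0.020), Phc3 (-0.47), Cbx1 (0.19), Cbx3 (0.21), Cbx5 (0.16), Auts2 (0.60), Fbrs (-0.037), Skp1 (0.40), Rbbp7 (0.030) and Asxl3 (0.13). Bmi1 was -0.044 after quantile normalization and -0.022 to 0.20 with 1 array left out, below 0 without ES5, ES7, ES18, ES19, ES20 or ES24. The members lower numbered 3 with the median over all probe sets, 3 with arrays centred on their median and 2 at a threshold of 0.01, against 5, and 2077 genes were lower without the dimmer 50% of genes, where fewer genes are tested. Centring moved the median of all genes to 0.13 and the share of higher calls to 66%, against 48.9%, and other Polycomb genes higher to 18, against 11. The causes of these changes were not tested. None of the 156 counts from fits with 1 array left out moved by over 1.5 times. The filter on dim genes left no value for Sfmbt2, Scml2, Auts2 and Asxl3. The highest run was the same for all 8 members with centring, and for 7 when all probe sets entered a median or a mean, where Rnf2 was highest in ES21 to ES24. The lowest run of Cbx8 was ES21 to ES24 in all 3 alternatives, and that of Bmi1 was ES15 to ES20 with centring. No paired analysis was possible because the labels give no shared replicate numbers. ES13, ES14, ES25 and ES26 make runs of 2 arrays, too few to show a spread.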

Other observations

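Of the 12 tested subunits of PRC2, which places the mark that Cbx proteins read, 4 lay above every other array in ES21 to ES24, as 2.38% of all genes did, and they are named after their values were seen. The core subunit Eed spanned 10.24 to 10.54 there and reached 9.70 at most elsewhere. The accessory subunits Jarid2 (10.59 to 11.24, against at most 10.47 elsewhere), Mtf2 (10.73 to 11.34, against at most 10.50) and Epop (9.66 to 9.88, against at most 9.35) did the same. In ES25 and ES26, 2 of the 12 lay below every other array, as 2.46% of all genes did, Jarid2 at 8.22 and 8.50 and the catalytic subunit Ezh1 at 7.96 and 8.35. Of the 24 accessory subunits of PRC1, 2 lay above every other array in ES21 to ES24, also named after their values were seen. L3mbtl2, a Pcgf6 partner, spanned 9.94 to 10.61 there and reached 9.68 at most elsewhere, and Sfmbt2 spanned 8.89 to 10.08 and reached 8.45 at most elsewhere. The naive pluripotency genes were also highest in ES21 to ES24, and their part in these values was not tested.

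The 23 probe sets shared by Cbx6, Npcd and Nptxr cannot be assigned to Cbx6. The median of the brighter 12 had run medians of 8.36, 7.95, 8.54, 8.96 and 9.66 in title order, with ES25 and ES26 at 9.73 and 9.59.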
